A study of Mus musculus with 6 samples.

Results

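The transcription factors that hold mouse embryonic stem (ES) cells in the pluripotent state were followed through the switching on of human GTF2IRD2. The 10 factors are Pou5f1 (also called Oct4), Sox2, Nanog, Esrrb, Klf2, Klf4, Klf5, Tfcp2l1, Tbx3 and Zfp42 (also called Rex1). Each was found by its symbol in the probe-to-gene table of the array, among probe sets that carry a single symbol. The 10 factors are 10 of 18193 genes so represented, and they hold 21 of the 45037 probe sets that are not manufacturer's controls. Pou5f1, Sox2, Nanog, Klf2 and Zfp42 have 1 probe set each, Klf4 has 2, Esrrb, Klf5 and Tfcp2l1 have 3 each, and Tbx3 has 5.

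Pluripotent cells can form every tissue of the embryo. The paired factors Pou5f1 and Sox2 bind together at many regulatory sequences of ES cells, and Nanog occupies many of the same places; these 3 are usually called the core. Esrrb, Tfcp2l1, Tbx3 and the Kruppel-like factors Klf2, Klf4 and Klf5 mark the naive state, that of the early epiblast, and several of them act downstream of leukemia inhibitory factor (LIF). Zfp42 is a long-used marker of undifferentiated ES cells.

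All arrays came from ES cells of the line EBRTcH3 (EB3) grown with serum and LIF, in which a FLAG-tagged human GTF2IRD2 coding sequence had been placed at the ROSA26 locus behind a promoter that tetracycline silences. GTF2IRD2 belongs to the TFII-I group of DNA-binding regulators, and the longest annotated reading frame was used according to the methods. The insert sequence given in the supplement is short beside those of its relatives, so that production of the whole protein is uncertain here. Clones A3, A4 and A5 each gave 1 uninduced culture, kept in tetracycline (0 hours), and 1 induced culture, without tetracycline for 24 hours, so that each group held 3 arrays and each clone 2. Every culture thus carried the transgene, each clone is a single isolate, and no array of cells without the transgene was analysed here. An effect of tetracycline itself, or of the differing times (0 and 24 hours), cannot be told apart from one of the human gene.

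Values are RMA expression levels on the log2 scale, on which a difference of 1 is a doubling, and the level of one probe set cannot be set against that of another. Array medians were 5.03 to 5.06, and pairs of arrays had correlations of 0.996 to 0.998 over the probe sets. The mouse probe set of Gtf2ird2 (1418343_at) read 6.33, 6.04 and 6.36 in uninduced A3, A4 and A5 and 6.38, 6.51 and 6.37 in the induced cultures. A mouse probe need not detect the human transcript, so these levels do not check the labels. The authors had measured the transgene in these clones by RT-PCR, which is not used here. In bulk RNA, fewer cells that express a gene and less RNA per cell cannot be told apart.

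The DNA motif that Pou5f1 recognises, the octamer, stands upstream of some of these genes themselves. RefSeq promoter windows (250 bases before to 50 after a transcription start, build GRCm38.p6) were at hand for 8 of the 10 genes, as 11 windows. The octamer ATGCAAAT, searched on both strands, was present in 570 of 32851 windows (1.74%), and among these genes in that of Zfp42. A joined Sox and octamer motif, CATTGT and ATGCAAA with 1 base between them, also searched on both strands and sharing the letters ATGCAAA with the octamer, was present in 2 of 32851 windows (0.00609%). Both are windows of Nanog, for starts at 122707489 and 122707565 on chromosome 6. They share 1 site, 75 bases before the first of these starts and 151 before the second. The stretches are shown because they are what Pou5f1 and Sox2 are known to bind, on the strand of the gene and with the motif in capitals, which in both reads in the reverse direction. The Nanog stretch lies at chr6:122707402-122707439 (plus strand) and the Zfp42 stretch at chr8:43307176-43307207 (minus strand), 186 bases before the start.
Nanog: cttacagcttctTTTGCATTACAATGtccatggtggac
Zfp42: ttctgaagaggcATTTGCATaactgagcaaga
A match of letters is a description of the sequence, and no binding was measured here.

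Where a gene had several probe sets, the one with the highest mean stands for it below. These 10 probe sets read between 8.46 and 12.67 in all 6 cultures, and of the 21 probe sets 15 had a mean of at least 5 and 6 did not. The 6 dim ones are 1 of Klf5, 2 of Tfcp2l1 and 3 of Tbx3. The cultures, grown as ES cells with LIF, thus carried transcripts of all 10 factors with and without tetracycline.

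**Figure D1:**
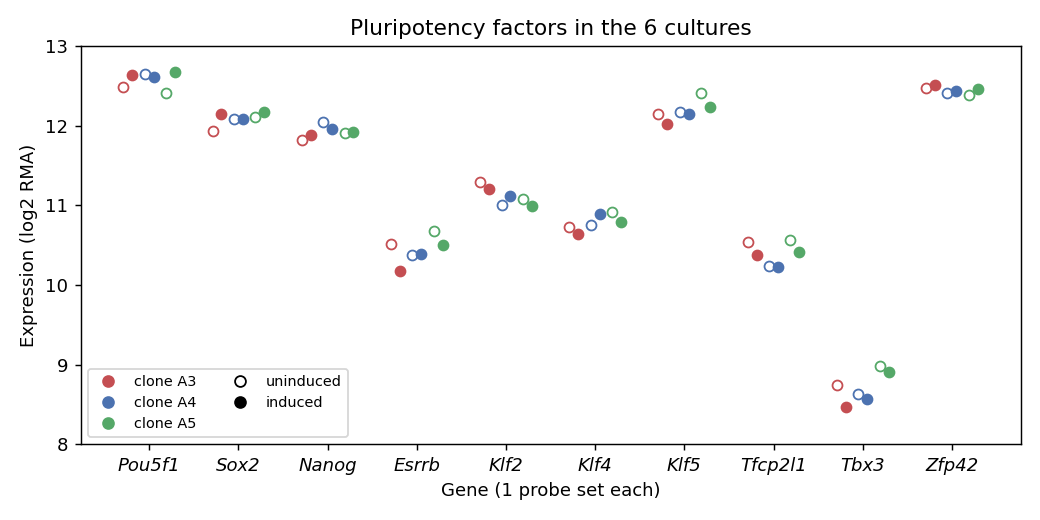
Expression (log2 RMA, vertical axis) of the 10 factors, 1 probe set each, in the 6 cultures, with colour for the clone and open or filled points for uninduced or induced. The points of each gene lie close together, within the overall span of 8.46 to 12.67, and heights of different genes cannot be set against each other.

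The core factors were at nearly the same level before and after induction. Pou5f1 (1417945_at), the POU-domain factor without which the pluripotent state is not kept, read 12.48, 12.65 and 12.41 in uninduced A3, A4 and A5. In the induced cultures it read 12.64, 12.61 and 12.67. The groups overlap, since A4 was as high uninduced as the induced clones were. The mean difference, induced minus uninduced, was 0.12 ± 0.08 (SE, n = 3 and 3 arrays), and its 95% interval reached no further than 1.24-fold in either direction.

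Sox2 (1416967_at), the partner that binds beside Pou5f1, read 11.93, 12.08 and 12.10 in uninduced A3, A4 and A5 and 12.14, 12.08 and 12.17 in the induced cultures. The low value is that of uninduced A3, and the groups overlap. The difference was 0.09 ± 0.08 (SE), within 1.20-fold. Nanog (1429388_at), the homeodomain factor that lets ES cells renew themselves with little LIF, read 11.82, 12.05 and 11.91 in the uninduced cultures and 11.88, 11.96 and 11.92 in the induced ones. Its levels in A5 were the same to the first decimal, and the groups overlap. The difference was -0.01 ± 0.08 (SE), within 1.14-fold, and its sign turned under other scalings of the arrays (0.00126 and 0.00556).

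Among the Kruppel-like factors, Klf2 (1448890_at) read 11.29, 11.00 and 11.08 in uninduced A3, A4 and A5 and 11.21, 11.12 and 10.99 in the induced cultures. A3 was the highest clone in both conditions. Klf4 (1417394_at), one of the classic reprogramming factors, read 10.73, 10.75 and 10.91 uninduced and 10.63, 10.89 and 10.79 induced, with a slightly higher level in A4 and slightly lower ones in A3 and A5. The differences were -0.02 ± 0.10 for Klf2 and -0.03 ± 0.09 for Klf4 (SE), within 1.18-fold and 1.17-fold, and both signs turned when single arrays were left out. Klf5 (1451021_a_at) read 12.14, 12.17 and 12.41 uninduced and 12.02, 12.14 and 12.23 induced. It was lower after induction in all 3 clones, but the groups overlap, and the difference of -0.11 ± 0.10 (SE) lay within 1.25-fold. The other Klf5 probe sets gave -0.05 (1451739_at) and -0.11 (1430255_at), and both were higher after induction in A5.

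Of the other naive factors, Esrrb (1436926_at), an orphan nuclear receptor, read 10.52, 10.37 and 10.68 in uninduced A3, A4 and A5 and 10.18, 10.39 and 10.50 in the induced cultures. The low value is that of induced A3. The difference was -0.17 ± 0.11 (SE), within 1.34-fold, and the other Esrrb probe sets gave 0.10 (1441921_x_at) and -0.03 (1422986_at). On 1441921_x_at each clone was higher after induction, with 9.21 to 9.29 uninduced and 9.30 to 9.39 induced. Tfcp2l1 (1418091_at), a factor that responds to LIF signalling, read 10.54, 10.24 and 10.56 uninduced and 10.38, 10.23 and 10.41 induced. It was lower after induction in each clone, by almost nothing in A4, and the difference of -0.11 ± 0.10 (SE) lay within 1.27-fold. The other Tfcp2l1 probe sets, both dim, were instead higher in each clone, by 0.15 (1460715_x_at) and 0.21 (1460714_at) on average.

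Tbx3 (1448029_at), a T-box factor, read 8.74, 8.64 and 8.98 in uninduced A3, A4 and A5 and 8.46, 8.57 and 8.90 in the induced cultures. Its second probe set (1437479_x_at) read 7.41, 7.52 and 7.89 uninduced and 7.05, 7.33 and 7.82 induced. On both, each clone was lower after induction, while the groups overlap because A5 lay above A3 and A4 in either condition. The differences were -0.14 ± 0.13 and -0.21 ± 0.20 (SE), within 1.36-fold and 1.58-fold. Zfp42 (1418362_at), a zinc finger factor that came from the Yy1 family, read 12.47, 12.40 and 12.39 uninduced and 12.51, 12.43 and 12.46 induced. It was higher after induction in all 3 clones by a small amount, with overlapping groups and a difference of 0.05 ± 0.07 (SE), within 1.15-fold.

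None of these differences passed the test. By limma's moderated test over all 45037 probe sets, adjusted p = 1.00 for each of the 21 probe sets, and 0 of 21 were called at an adjusted p under 0.05, as were 0% of all probe sets. At an unadjusted p under 0.05, 1 of the 21 (4.76%) passed, against 3.12% of all probe sets. That probe set is 1460714_at of Tfcp2l1, which is dim and was 0.21 higher after induction, while the brighter Tfcp2l1 probe set was lower. The methods' t-test, run on the same values, called 0 of the 21 after Benjamini-Hochberg adjustment, and at an unadjusted p under 0.05 it passed 0 of 21 and 1681 of 45037. A paired test by clone likewise called 0 after adjustment and passed 1 of 21 and 2269 of 45037 unadjusted.

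With the clone as a replicate block, the number called stayed at 0 of 21 (0% of all probe sets), the smallest adjusted p being 0.843. At an unadjusted p under 0.05, 3 of 21 (14.3%) passed with the block, against 5.77% of all. They are the same Tfcp2l1 probe set and, both lower after induction, 1437479_x_at and the dim 1445757_at of Tbx3. Of the 21 differences 7 were above 0 and 14 below, with a median of -0.03, beside -0.00373 over all probe sets. The median size was 0.0959, beside 0.0589 over all. A single sign in all 3 clones was found for 9 of the 21 (42.9%), beside 25.9% of all probe sets. These shares describe 21 probe sets of 10 genes, several of which share a gene.

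**Figure D2:**
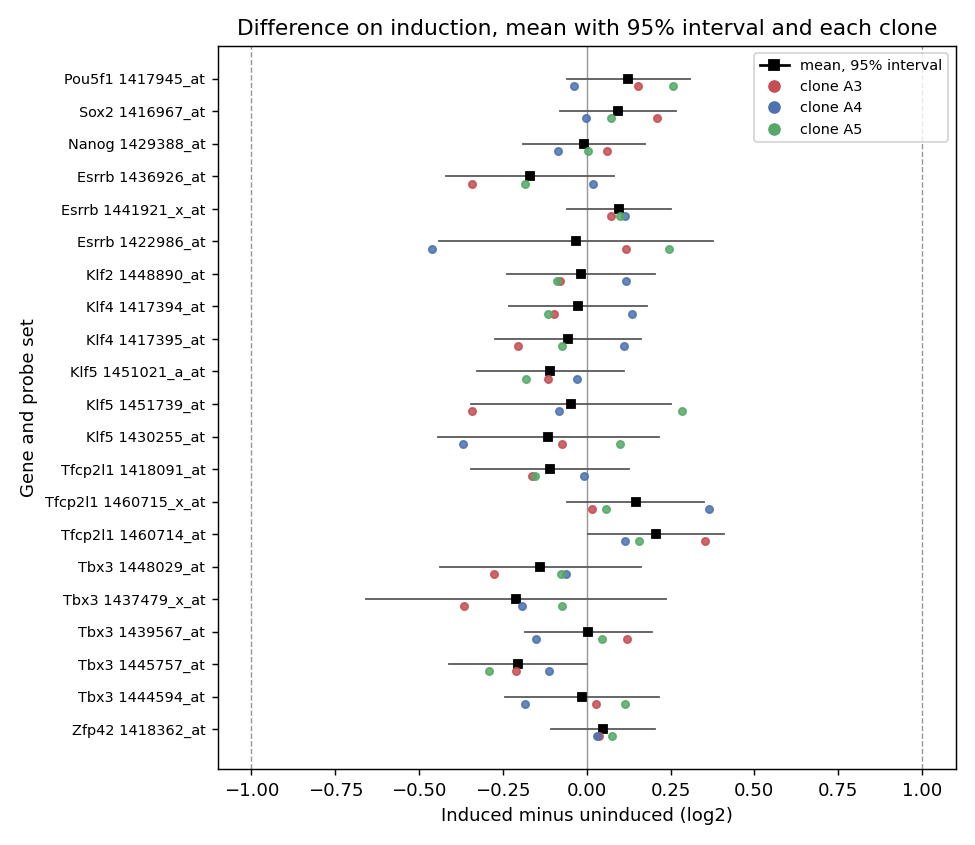
Induced minus uninduced level (log2, horizontal axis) of the 21 probe sets, with the mean and its 95% interval as square and bar and the 3 clones as coloured points. Dashed lines mark a 2-fold difference in either direction, and none of the 21 intervals reaches them.

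Each clone supplied 1 pair of arrays, so whether clones respond differently cannot be tested. As values, Pou5f1 differed by 0.15, -0.04 and 0.26 in A3, A4 and A5, and Esrrb (1436926_at) by -0.34, 0.02 and -0.18. Clone A4 thus had the smallest differences of the 3 for both genes, which went in opposite directions in A3 and A5. By the probe sets that stand for the genes, A4 also had the smallest for Sox2, Klf5, Tfcp2l1, Tbx3 and Zfp42. It had the largest, whatever the sign, for Nanog (-0.09), Klf2 (0.12) and Klf4 (0.13). The same held on another Esrrb probe set, 1422986_at (-0.46).

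Between the clones, 0 of the 10 factors were called by the probe sets that stand for them, beside 3.09% of 18193 genes. Over all 21 probe sets 1 was called (4.76%), which is near the 2.18% called of all 45037, and it is the second of Tbx3. The second Tbx3 probe set (1437479_x_at) averaged 7.23, 7.42 and 7.86 over the 2 arrays of A3, A4 and A5. The 2 arrays of A5 lay above the other 4 (7.82 and 7.89, against 7.05 to 7.52). In a moderated F-test (limma) of clone differences, with induction as a term, its adjusted p = 0.0335. A3 minus A5 was -0.63 ± 0.10 (SE, adjusted p = 0.0206), which makes the level in A5 1.54 times that in A3.

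The call rests on single cultures and on both end clones, and it was lost without the induction term (adjusted p = 0.0843). Without induced A3 the F-test gave adjusted p = 0.127, without induced A5 0.163, without uninduced A4 0.0553 and without uninduced A5 0.0549. Without both arrays of A3 the gap between A4 and A5 was 0.43 (adjusted p = 0.397), and without both of A5 that between A3 and A4 was 0.19 (adjusted p = 0.344). The suffix of this probe set marks probes that may also match other transcripts. The brighter Tbx3 probe set (1448029_at), which has no such mark, averaged 8.60, 8.60 and 8.94 in the same order. It was also highest in A5 but was not called (adjusted p = 0.154), except where the spread was modelled with a trend on intensity (adjusted p = 0.0222). The 3 dim probe sets of Tbx3 had ranges of clone means of 0.12, 0.21 and 0.22, and none was called.

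Other values differed across the clones as well. The 27 spike probe sets for poly-A RNA, which is added before labelling, averaged 6.17 and 6.46 in A3, 6.03 and 6.11 in A4 and 5.71 and 6.15 in A5 (uninduced and induced). They were thus highest in A3, where the second Tbx3 probe set was lowest. In each clone they were higher after induction, where that probe set was lower. The log2 of the summed linear levels of 7 endoderm markers, which include several of cells that surround the epiblast, lay at 7.43 to 7.64 for clone A3, at 7.64 for both arrays of A4 and at 7.80 to 7.86 for A5. Among them Dab2, itself near the array medians, had means of 4.99, 4.90 and 5.40 in A3, A4 and A5 (F-test, adjusted p = 0.0390). That call was lost whichever single array was left out, and without the induction term (adjusted p = 0.0714). Gata4, Gata6, Sox17 and Foxa2 read at most 5.21 on any array, near the array medians or below. Sox7, another endoderm factor of this list, had clone means in the same order as Tbx3. It read 5.83, 5.76 and 6.16 in uninduced A3, A4 and A5 and 5.19, 5.64 and 5.83 in the induced cultures. Its clone means of 5.51, 5.70 and 5.99 were not called (adjusted p = 0.181), nor was its difference on induction of -0.36 ± 0.17 (SE), which was below 0 in all 3 clones. The part of the spikes or of other cells in the Tbx3 result was not tested. Nor was that of the spikes in the differences on induction.

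**Figure D3:**
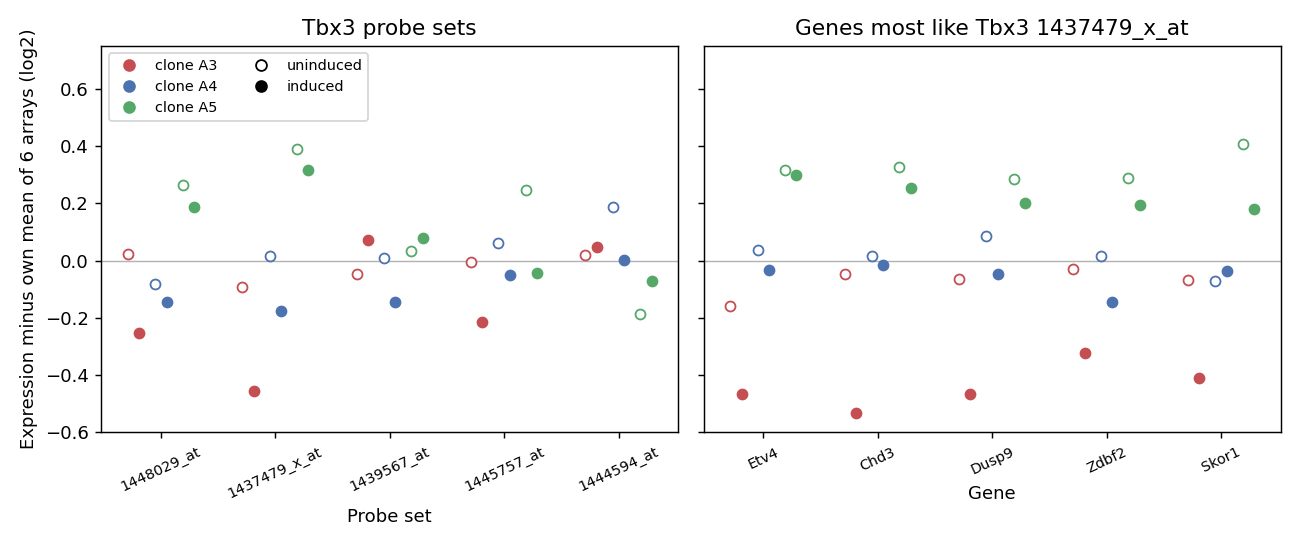
Expression of the 5 Tbx3 probe sets (left) and of the 5 genes whose levels ran most like 1437479_x_at (right), each minus its own mean over the 6 arrays (log2, vertical axis). In 1448029_at, 1437479_x_at and all 5 genes on the right the arrays of A5 are the 2 highest and induced A3 the lowest, while the 3 dim Tbx3 probe sets share no order of clones.

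The genes whose levels ran most like 1437479_x_at were found by the root mean square difference of the 6 arrays after each probe set was centred on its own mean. They are Etv4 at 0.0727, Chd3 at 0.0832, Dusp9 at 0.0877, Zdbf2 at 0.0887 and Skor1 at 0.0909. Etv4 is an ETS factor, and Dusp9 a phosphatase that acts on mitogen-activated protein (MAP) kinases. Clone means of Etv4 were 9.13, 9.44 and 9.75 in A3, A4 and A5, and those of Dusp9 8.92, 9.20 and 9.42, so that both stood in the same order of clones as Tbx3. The brighter Tbx3 probe set was less close, at 0.128. These are descriptions over 6 arrays, picked from all probe sets with 1 symbol for their likeness.

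The core factors and Zfp42 had the smallest ranges of clone means over all 6 arrays, by the probe sets that stand for the genes. Zfp42 had clone means of 12.49, 12.42 and 12.42 in A3, A4 and A5, a range of 0.07, the smallest of the 21. The ranges were 0.09 for Pou5f1, 0.10 for Sox2 and 0.15 for Nanog, and these 3 had no order of clones in common. Of these 4, only Zfp42 stayed low whichever single array was left out (0.07 to 0.09). Without induced A4 the range was 0.21 for both Pou5f1 and Nanog, and without induced A3 it was 0.19 for Sox2 and 0.20 for Nanog, above that of Klf4 in the same fits (0.17 and 0.12). Klf4 followed with 0.17, Klf2 with 0.21, Klf5 and Esrrb with 0.24 each and Tfcp2l1 with 0.25, none of them called.

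The means of Klf5 stood in the order A3, A4, A5 (12.08, 12.16 and 12.32), and Esrrb had the same order (10.35, 10.38 and 10.59), as did Klf4 (10.68, 10.82 and 10.85). Klf2 had the opposite order (11.25, 11.06 and 11.04), and Tfcp2l1 was lowest in A4 (10.46, 10.23 and 10.49). With the trend on intensity, Klf5 (adjusted p = 0.0338) and Tfcp2l1 (adjusted p = 0.0452) were called beside both Tbx3 probe sets, making 4 of 21, when 5.86% of all probe sets were called. The third Esrrb probe set (1422986_at), with means of 7.72, 8.14 and 8.08, was called only without induced A4 (adjusted p = 0.0446).

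In pairs of clones, 0 of 21 probe sets were called between A3 and A4 (2.94% of all), 1 between A3 and A5 (1.68% of all) and 0 between A4 and A5 (0.0511% of all). At an unadjusted p under 0.05, 3 of 21 (14.3%) passed between A3 and A4, beside 17.2% of all. Between A3 and A5 8 passed (38.1%), beside 13.2% of all, and between A4 and A5 3 (14.3%), beside 7.22% of all. A3 had the lowest of the 3 clone means in 12 of 21 probe sets (57.1%, beside 39.0% of all), and A5 the highest in 11 (52.4%, beside 29.8% of all). The median range of clone means was 0.211 for the 21 and 0.145 over all probe sets. By the F-test, 4 of 21 (19.0%) had an unadjusted p under 0.05, beside 15.0% of all.

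Genes that work with the 10 factors were read from 3 further lists, each gene by its brightest probe set. Induction called 0 genes of any list, and between clones 3.09% of the 18193 genes were called. Of 14 measured partner factors, 2 were called between clones. Prdm14, which keeps DNA methylation and differentiation signals low in naive cells, had means of 7.45, 8.19 and 8.01 in A3, A4 and A5 (adjusted p = 0.0266). Rif1, a telomere-associated and replication-timing protein, had means of 11.79, 11.33 and 11.43 (adjusted p = 0.0494), a call lost with renewed quantile normalization (adjusted p = 0.0584) and without any single array (adjusted p = 0.0740 to 0.296). A3 was thus lowest in one and highest in the other, while Sall4, Stat3, Nr5a2 and Nr0b1 had ranges of 0.20, 0.17, 0.21 and 0.07 and were not called.

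Of 12 measured genes described as targets of these factors, 3 were called. Dppa3 (Stella), a maternal and germ-cell factor that varies from cell to cell in ES cultures, read 7.68 and 7.73 in A3, 8.97 and 8.86 in A4 and 8.12 and 8.14 in A5 (uninduced and induced). The pairs lie far apart, and the range of clone means was 1.21 (adjusted p = 0.00202). Dnmt3l, a cofactor of the de novo DNA methyltransferases, had means of 12.48, 11.85 and 11.76 (adjusted p = 0.00965). Fgf4, the growth factor whose enhancer is bound jointly by Pou5f1 and Sox2, had means of 10.16, 9.65 and 9.69 (adjusted p = 0.0287). The Fgf4 call was lost whichever single array was left out, with ranges of 0.48 to 0.55. Dnmt3l and Fgf4 were thus highest in A3 and Dppa3 lowest there. Utf1, Fbxo15, Tdgf1 and Dppa5a, also targets, had ranges of 0.23, 0.18, 0.14 and 0.08 and were not called.

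Of 15 measured paralogs of the factors, 1 was called: Sox15, a relative of Sox2, with means of 6.65, 7.47 and 7.12 (adjusted p = 0.0106). Klf6, with the smallest induction p of the paralogs, was 0.18 ± 0.10 (SE) higher after induction. The POU factor Pou3f1 was 0.13 ± 0.11 (SE) higher. Sox3 read 6.48, 6.28 and 6.45 in uninduced A3, A4 and A5 and 7.17, 6.34 and 6.24 in the induced cultures, so that induced A3 stood alone above the rest.

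**Figure D4:**
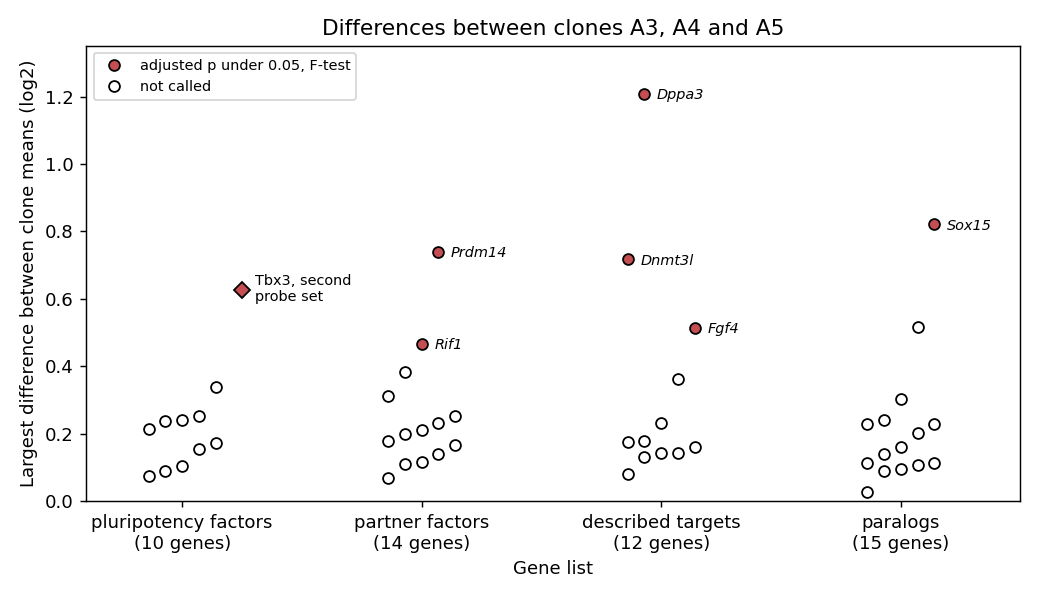
Largest difference between clone means (log2, vertical axis) for the pluripotency factors and for their partner factors, described targets and paralogs, 1 point per gene by its brightest probe set, filled where the F-test gave an adjusted p under 0.05. The diamond is the second Tbx3 probe set at 0.63, and Dppa3 at 1.21 is the highest point.

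Genes of the exit from the naive state were measured for all 9 of the list, and 0 were called on induction. Of these, 7 were above 0 and 2 below, with a median of 0.13. Over all genes 8819 were above 0 and 9374 below, with a median of -0.00278. The 7 include Dnmt3b, at 0.00594, and Sox3, which was lower after induction in A5. Lef1, an effector of Wnt signalling, was 0.19 ± 0.09 (SE) higher, in all 3 clones. Otx2, a driver of the primed state, was the 1 of the 9 called between clones, beside 3.09% of all genes. It had means of 5.62, 6.25 and 5.78 (F-test, adjusted p = 0.0321). On induction Otx2 was 0.22 ± 0.20 (SE) higher, in all 3 clones. Fgf5, the classic marker of primed cells, read 3.51 to 3.65 on all 6 arrays. Pou3f1, Sox3 and Foxd3 belong to this list and to another.

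Markers of differentiated cells were likewise not called on induction, with 0 genes of any list. Between clones 3.09% of all genes were called, beside 1 of 5 measured mesoderm markers (Eomes) and 1 of 7 endoderm markers (Dab2, above). Of 7 trophoblast markers 3 were called (Tfap2c, Ascl2 and Krt18), and of 5 neural and 7 fibroblast and feeder markers 0. Eomes had means of 6.01, 6.88 and 6.64 in A3, A4 and A5, and Tfap2c, which naive and germ cells express as well, 8.32, 9.42 and 9.10. Ascl2 ran the other way, with 7.73, 6.97 and 6.86. On induction Ascl2 was 0.39 ± 0.28 (SE) higher, in all 3 clones, while of the 7 trophoblast markers 3 were higher and 4 lower. With the replicate block its unadjusted p = 0.000951 (limma), and it was not called after adjustment. The calls between clones depended on single arrays. Of the 12 genes of all lists called, 3 were still called without induced A3, 5 without uninduced A3, 6 without the one or the other array of A4 and 8 or 9 without an array of A5. Without the induction term 9 were still called, Otx2, Dab2 and Ascl2 being lost. Without both arrays of A3, Dppa3 alone was still called (adjusted p = 0.0366), and without both of A4 it was not (range 0.42, adjusted p = 0.0658).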

How the data were processed

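Total RNA of the 6 cultures had been hybridized to Affymetrix Mouse Genome arrays, 1 each. The authors made the deposited log2 values by RMA in the affy package of Bioconductor (background correction, quantile normalization and summarization of probes). Versions and the arrays normalized together are not given in the sources used here. Of 45101 probe sets, 64 controls were left out and 45037 tested without a filter. The probe table gives 1 symbol for 34945, several for 932 and none for 9160.

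Groups came from the labels. Induction was tested in limma 3.58.1 (lmFit, eBayes, two-sided, Benjamini-Hochberg over all probe sets) in R 4.3.3, without the clone, since the methods name a t-test and mention no pairing. Clones were compared by limma's F-test with induction as a term. The labels give each clone its own replicate number. Any difference in handling between replicates therefore cannot be told apart from one between clones. After group means were removed, arrays of 1 clone correlated at 0.524, 0.376 and 0.210 (A3, A4, A5), those of different clones at -0.407 to 0.0689, so the clone was also fitted as a replicate block. Alternatives were the methods' t-test, a paired test, an intensity trend, a mean of at least 5, renewed quantile normalization, median centring, no induction term, and leaving out each array or clone. The code was tested on simulated data.

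Called probe sets of the factors are all printed, otherwise the one with the highest mean and, for some genes, others. From other lists, genes with the smallest p were named by rule, and Sall4, Stat3, Nr5a2, Nr0b1, Utf1, Fbxo15, Tdgf1, Dppa5a, Pou3f1, Sox3, Fgf5, Gata4, Gata6, Sox17 and Foxa2 beside them for their roles after their values were seen. The factors and lists were chosen with earlier results of these data known. Some listed genes are not reported here. The replicates are clones, so p-values of induction measure the spread between these 3 clones, and those between clones compare these clones only. Array number limits precision.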

Additional observations from a re-analysis of the deposited data

How the results depend on the processing

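For induction, 0 of 21 probe sets of the factors were called in all 16 alternatives. Of the induction differences of the factors and of other listed genes under them, 274 of 287 kept their sign. Nanog turned to 0.00126 with renewed quantile normalization and 0.00556 with median centring. Leaving out an array or a clone moved Nanog over -0.0604 to 0.0527, Klf2 over -0.0844 to 0.0655 and Klf4 over -0.107 to 0.0422. It kept the sign of the others but moved Pou5f1 over 0.06 to 0.20, Sox2 over 0.04 to 0.14, Esrrb over -0.26 to -0.08, Klf5 over -0.16 to -0.02, Tfcp2l1 over -0.21 to -0.05, Tbx3 over -0.27 to -0.04 and Zfp42 over 0.03 to 0.07. Between clones, the trend on intensity called 4 probe sets of the factors and 2641 of all, with 1 between A3 and A4 and 3 between A3 and A5. A mean of at least 5 called 1885 of all. Without the induction term 0 of the factors were called (Tbx3 adjusted p = 0.0843), also between A3 and A5, with the Tbx3 values (0.63 for the range, -0.63 for A3 minus A5) unmoved. Leaving out an array or a clone gave 0 to 2 called probe sets of the factors, 0 to 1 between A3 and A4 and between A3 and A5, and 26 (without A3) to 1427 (without A5) of all; the second Tbx3 probe set then ranged over 0.19 to 0.74 and A3 minus A5 over -0.74 to -0.51. Fewer arrays enter each of these fits. The cause of the other shifts was not tested. With the replicate block 0 of 21 were called on induction, and it changed no call.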
